A study of Mus musculus with 6 samples.

Results

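The genes described here encode the nuclear subunits of the mitochondrial respiratory chain and of ATP synthase. They were chosen by symbol alone, as the genes named Nduf followed by a, b, c, s or v and a number, Cox4 to Cox8, Uqcr, Sdha to Sdhd, and Atp5. This rule took 79 of the 13595 genes in the deposited table, and all 79 passed the filter on low values. By complex, 35 belonged to complex I, 4 to complex II, 8 to complex III, 13 to complex IV and 15 to complex V. Ndufa4 and Ndufa4l2 were set apart as a pair of 2 genes, because the Ndufa4 protein, first assigned to complex I, is a subunit of complex IV. A further 2 genes, Atp5s and Atp5sl, carry complex V names only. Their newer names are Dmac2l and Dmac2.

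RNA came from primary liver cells of C57BL6/J mice aged 4 weeks, selected for CD31, a surface protein of endothelial cells, and then cultured. Before RNA extraction the cells of all 6 libraries were exposed to 100 µM indoxyl sulfate, hypoxia and nutrient deprivation, the last 2 for 6 hours. Indoxyl sulfate, made from tryptophan, activates the aryl hydrocarbon receptor. There were 3 libraries labelled male (male 4, 5 and 6) and 3 labelled female (female 4, 5 and 6), and sex was the only contrast. Cells without indoxyl sulfate or without hypoxia were not analysed here, so no value below measures a response to either. The labels do not say whether replicates were mice, isolations or wells, so the p-values measure only the spread between these samples, which may be technical. No batch is named in the labels, so a batch effect and the sex contrast cannot be told apart if they coincide.

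The libraries held 22303270 to 31189363 reads over the genes of the table. Xist averaged 286 in the libraries labelled female and 0.323 in those labelled male, but RNA of the Y-linked genes Ddx3y, Uty, Eif2s3y and Kdm5d was present in all 6. Ddx3y averaged 52.1 in the libraries labelled female and 57.0 in those labelled male. Uty averaged 24.1 and 26.9, while Eif2s3y (29.8 and 58.1) and Kdm5d (19.1 and 34.8) were called lower in the libraries labelled female. The presence of this RNA goes against the female label, and every direction below rests on the labels. Male 4 stood apart from the other male libraries, with a chi-square statistic per gene of 43.6 and 45.4 against them, where male 5 and male 6 gave 5.98 against each other. It was the lowest male library for 51 of the 79 genes and the highest for 16. Pecam1, which encodes CD31, averaged 407 in the male and 73.9 in the female libraries. Of 17 endothelial markers tested, 14 were lower and 2 higher in the female libraries, beside 34.6% of all genes tested called in each direction. The summed level of the 20 listed was 2596 to 2674 in the male and 1296 to 1362 in the female libraries. Of 5 sinusoidal endothelial markers tested, 3 were lower and 2 higher, and the 10 in the table summed to 505 to 541 and 48.2 to 50.5. Lyve1, with means of 498 and 4.98, carried most of the male sum, and Gata4, with means of 3.75 and 32.1, most of the female one. Clec4g, Fcgr2b and Stab2 were near absent from all 6 libraries, with at most 3, 1 and 10 reads in any library. Clec4g was at 0 in all male and Fcgr2b in all female libraries. In bulk RNA, fewer cells of a type and less RNA per cell cannot be told apart.

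The respiratory chain moves electrons from NADH through complex I, and from succinate through complex II, to complex III, cytochrome c and complex IV, where oxygen is reduced. Complexes I, III and IV pump protons across the inner mitochondrial membrane, and complex V, the ATP synthase, uses the gradient to make ATP. Complexes I, III, IV and V mix subunits encoded in the nucleus with subunits encoded in mitochondrial DNA, while complex II is wholly nuclear. Hypoxia is known to raise Ndufa4l2 and Cox4i2, both targets of hypoxia-inducible factors. The first is known to restrain complex I activity, and the second is an alternative form of the Cox4 subunit. The 13 subunits encoded in mitochondrial DNA were not analysed here.

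Promoter sequence was held in the RefSeq table (GRCm38.p6) for 63 of the 79 genes and for 27025 genes in all. It is shown for the 3 genes that fell most and the 2 that rose most in the female libraries among those with an entry. Each line gives the 250 bases before the annotated start, 5′ to 3′ on the gene's strand, and capitals mark matches on either strand to 4 short motifs. The motifs were the core of hypoxia response elements (ACGTG or GCGTG), the half-site of nuclear respiratory factor NRF1 (GCGCATG), the ETS site bound by GABP (CCGGAAG) and the core of YY1 sites (CCATNTT). The windows lay at chr17:31519865-31520114 on the plus strand (Ndufv3), chr15:82354292-82354541 on the minus strand (Ndufa6), chr7:4753095-4753344 on the minus strand (Cox6b2), chr5:115348959-115349208 on the minus strand (Cox6a1) and chr4:40279422-40279671 on the minus strand (Ndufb6).
Ndufv3: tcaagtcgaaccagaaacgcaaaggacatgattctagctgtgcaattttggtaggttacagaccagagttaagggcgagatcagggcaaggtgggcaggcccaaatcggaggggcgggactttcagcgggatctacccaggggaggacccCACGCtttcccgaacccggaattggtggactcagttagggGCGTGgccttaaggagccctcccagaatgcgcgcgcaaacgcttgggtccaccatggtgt
Ndufa6: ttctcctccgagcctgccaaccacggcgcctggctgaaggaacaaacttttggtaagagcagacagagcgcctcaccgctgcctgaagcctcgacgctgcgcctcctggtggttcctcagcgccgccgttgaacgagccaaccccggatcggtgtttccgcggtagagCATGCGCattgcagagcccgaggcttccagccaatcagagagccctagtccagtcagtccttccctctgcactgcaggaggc
Cox6b2: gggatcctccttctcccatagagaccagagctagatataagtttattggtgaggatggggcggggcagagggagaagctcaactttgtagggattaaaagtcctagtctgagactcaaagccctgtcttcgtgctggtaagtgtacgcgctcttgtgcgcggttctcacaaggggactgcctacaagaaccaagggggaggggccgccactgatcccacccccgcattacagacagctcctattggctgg
Cox6a1: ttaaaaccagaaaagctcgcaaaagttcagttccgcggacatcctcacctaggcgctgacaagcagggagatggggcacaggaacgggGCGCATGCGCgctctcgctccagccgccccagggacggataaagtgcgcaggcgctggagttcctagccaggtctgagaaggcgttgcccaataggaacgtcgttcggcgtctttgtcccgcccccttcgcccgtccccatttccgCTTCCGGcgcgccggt
Ndufb6: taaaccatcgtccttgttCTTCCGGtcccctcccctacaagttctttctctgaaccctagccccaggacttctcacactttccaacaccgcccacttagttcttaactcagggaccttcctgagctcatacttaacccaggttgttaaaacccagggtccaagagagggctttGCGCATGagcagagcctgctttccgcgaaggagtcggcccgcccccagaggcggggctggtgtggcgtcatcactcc
Among the promoters shown, Ndufv3 held the hypoxia core at 2 places, and Ndufa6, Cox6a1 and Ndufb6 held the NRF1 half-site. Cox6a1 and Ndufb6, the genes that rose most, each also held an ETS site, and Cox6b2 held none of the 4 motifs in the bases shown. With the 50 bases past the start included, Ndufv3 held 4 hypoxia cores and Ndufa6 held 2. Shares were taken over genes in the full 300-base windows, which run 50 bases past the start. A gene counted if any of its promoters held a match. The NRF1 half-site was in 20.6% of the 63 genes and in 4.41% of all 27025. The ETS site was in 25.4% against 9.93%, the YY1 core in 30.2% against 18.2%, and the hypoxia core in 63.5% against 46.7%. The hypoxia core was in 12 of 17 genes that rose, 8 of 15 genes that fell and 20 of 31 of the others. The NRF1 half-site was in 5, 2 and 6 of these genes. A match is a run of letters in the window and was not tested as a binding site. Ndufa4l2 and Cox4i2 were among the 16 genes without an entry.

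Most nuclear subunit genes differed little between the groups, and a small number of alternative subunits differed a great deal. In the limma fit to log2(value + 1), with p-values adjusted over all 12568 genes tested, 43 of the 79 genes passed an adjusted p of 0.05. Of all genes tested, 69.3% passed, which makes the 54.4% seen here the lower share. The 43 comprised 24 genes higher and 19 lower in the female libraries, while 34.6% of all genes were called in each direction. With values rescaled to CPM over the reads in the table, 31 were higher and 16 lower. Calls over all genes tilted upward under that scaling too, with 4859 of 8736 higher and a median log2 fold change of 0.08. Without male 4, 25 were higher and 22 lower, when 74.8% of all genes were called. Groups did not overlap for 48 genes (60.8%), against 74.1% of all genes.

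The median fold change of the 79 genes was 0.02 on the log2 scale, beside 0.01 over all genes tested. Their median absolute log2 fold change was 0.22, with quartiles of 0.09 and 0.40, where all genes had a median of 0.46 and quartiles of 0.20 and 0.87. The largest increase was 0.60. Only 4 genes were called with a log2 fold change of at least 1 in size, a criterion met by 20.6% of all genes. All 4 were lower in the female libraries, a direction that took 12.1% of all genes, and 0 were higher, where 8.51% of all genes were. They were Ndufa4l2, Cox4i2, Ndufv3 and Cox6b2. Replicates lay close together, with a median coefficient of variation of 5.51% in the male and 3.94% in the female libraries, against 9.82% and 6.24% over all genes. Over male 5 and male 6 alone it was 3.22%, against 3.98% over all genes.

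**Figure D1:**
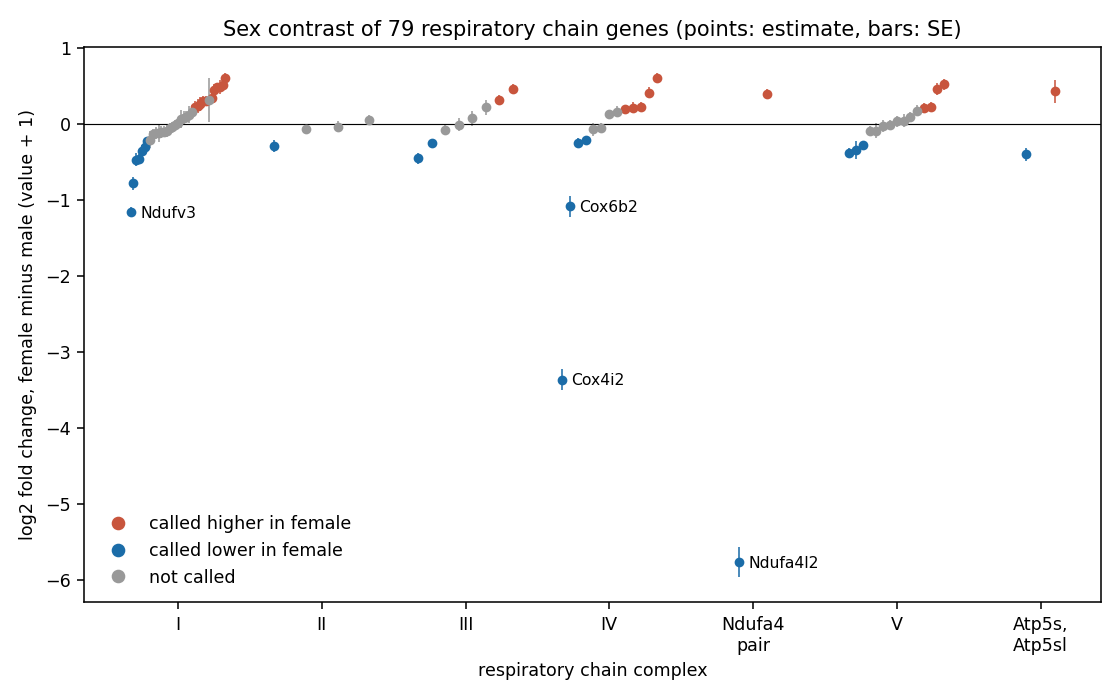
Log2 fold change, female minus male, of each of the 79 genes (y axis) by complex (x axis). Points are limma estimates, bars are standard errors, and colour gives the call; all genes but the 4 named lie between -0.78 and 0.60.

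**Figure D2:**
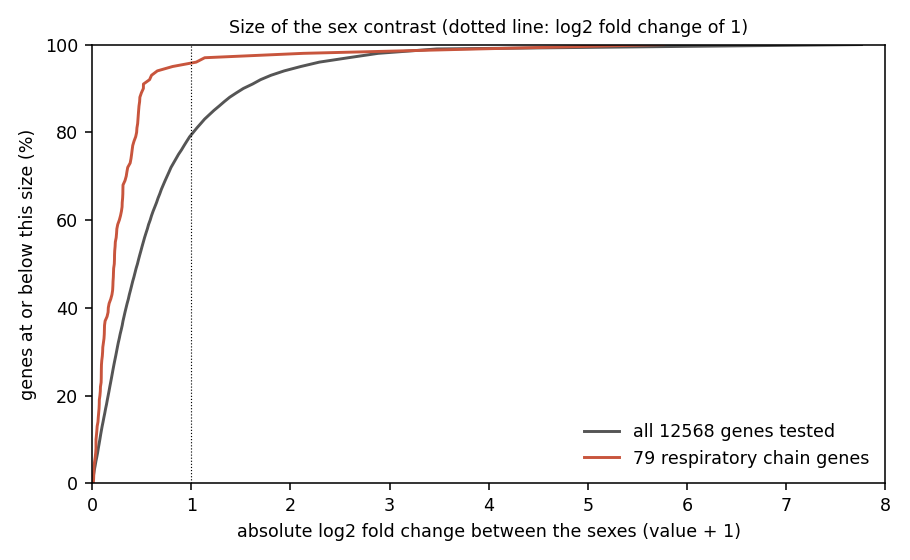
Percent of genes (y axis) at or below each absolute log2 fold change (x axis) for the 79 respiratory chain genes and for all 12568 genes tested. The respiratory chain curve rises earlier, with a median of 0.22 against 0.46, and the dotted line marks a log2 fold change of 1.

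Ndufa4l2 was the gene that differed most. Its normalized read count was 151, 234 and 260 in male 4, 5 and 6, and 2.57, 2.56 and 3.56 in female 4, 5 and 6. Every male library was far above every female one, and male 4 was the lowest of its group. The means were 215 ± 57.1 and 2.90 ± 0.573 (SD, n = 3), a 74.1-fold higher male level, and the log2 fold change, -5.76 with SE 0.20, had an adjusted p of 1.19e-07 in limma. The gene was covered by at least 58 reads in each library. Without male 4 the log2 fold change was -6.00.

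Ndufa4, the constitutive member of the pair, moved the other way. Its values were 53.9, 48.9 and 50.5 in the male and 68.0, 65.6 and 68.8 in the female libraries, with no overlap. It rose by 0.39 on the log2 scale (SE 0.06, limma adjusted p 0.000688). Reads of Ndufa4l2 were 424% ± 126 of those of Ndufa4 in the male and 4.29% ± 0.771 in the female libraries (SD, n = 3). Per base of transcript, Ndufa4l2 stood at 183% to 336% of Ndufa4 in the male libraries and at 2.47% to 3.38% in the female ones. The more abundant transcript of the pair thus differed between the groups in all 6 libraries.

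Cox4i2, the alternative Cox4 subunit of complex IV, followed the same direction. It was read at 46.3, 47.2 and 48.9 in the male and at 2.78, 4.16 and 4.37 in the female libraries. The male libraries were close together, male 4 included, and the groups were far apart. Its male mean was 12.6-fold higher, with a log2 change of -3.36 (SE 0.14, limma adjusted p 2.75e-07). Cox4i1, the constitutive form, was read at 170, 178 and 184 in the male and 207, 212 and 204 in the female libraries. It rose by 0.23 on the log2 scale (SE 0.06, limma adjusted p 0.00636). Cox4i2 reads were 26.8% ± 0.357 of Cox4i1 reads in the male and 1.81% ± 0.418 in the female libraries (SD, n = 3). Per base of transcript the range was 27.7% to 28.4% against 1.40% to 2.23%, so Cox4i1 was the more abundant form in both groups.

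Cox6b2, known as a testis form of a subunit that faces the intermembrane space, was the third alternative subunit to fall. Its values were 11.9, 17.2 and 16.1 in the male and 6.31, 6.37 and 6.79 in the female libraries. Groups did not overlap, and male 4 was the lowest male library. The log2 change was -1.09 (SE 0.14, limma adjusted p 0.000158), and without male 5 it was -0.990, under the size of 1 used above. Cox6b1, the widely expressed form, was read at 108, 121 and 113 in the male and 129, 142 and 125 in the female libraries. It rose by 0.21 on the log2 scale (SE 0.07, limma adjusted p 0.0276), a call lost when male 6, female 4 or female 5 was left out. Cox6b2 reads were 13.2% ± 1.84 of Cox6b1 reads in the male and 4.94% ± 0.470 in the female libraries (SD, n = 3). Per base of transcript the range was 11.7% to 15.1% against 4.74% to 5.73%.

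Each of the 3 ratios fell, by 6.59 for Ndufa4l2 to Ndufa4, 3.91 for Cox4i2 to Cox4i1 and 1.41 for Cox6b2 to Cox6b1 on the log2 scale. A two-sided exact permutation test over the 6 libraries gave p = 0.1 for each, the smallest that 3 against 3 allows, and 0.1 after adjustment over the 3 ratios. A ratio within a library does not depend on library scaling. The muscle forms Cox6a2, Cox7a1 and Cox8b were not analysed here.

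**Figure D3:**
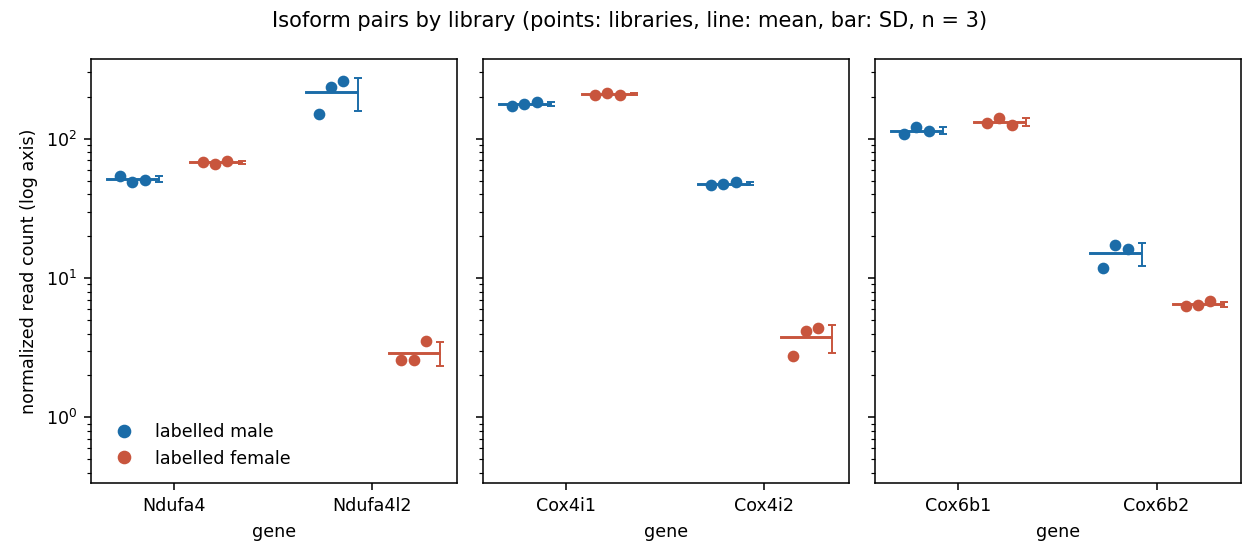
Normalized read count (y axis, log scale) of 3 pairs of alternative subunits (x axis) in each library, with the mean as a line and the SD as a bar (n = 3). The left gene of each pair was higher in the female libraries and the right gene was lower in them.

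Markers of stellate cells, mural cells and fibroblasts moved in both directions. Ndufa4l2 is also known as a gene of pericytes. Of 15 tested from this mixed list, 6 were higher and 9 lower in the female libraries, beside 34.6% of all genes tested called in each direction. The summed level of the 16 in the table was 2901 to 3738 in the male and 3579 to 4298 in the female libraries. The pericyte receptor gene Pdgfrb, like Ndufa4l2, Cox4i2 and Cox6b2, was lower in the female libraries. It averaged 133 in the male and 14.3 in the female libraries, and Rgs5, another pericyte gene, 16.9 and 2.89. The fibroblast genes Pdgfra, Col1a1, Col1a2, Col3a1, Dcn and Lum were lower too. The contractile genes Acta2, Tagln, Myh11 and Cnn1 were higher there, as was Des, with Acta2 at 78.6 and 1694 and Myh11 at 1.65 and 124. None of these 16 markers averaged 0 in either group. Of 6 cholangiocyte markers tested, 5 were lower and 1 higher, beside the same 34.6% of all genes in each direction. The summed level of the 8 in the table was 1648 to 2496 in the male and 513 to 616 in the female libraries. Spp1, Krt19 and Sox9 carried most of that sum, Krt7 went the other way with means of 1.84 and 9.19, and Epcam averaged 0.0775 and 0.231. Hepatocyte markers summed to 7.13 to 11.7 and 0.285 to 0.374, and Cyp3a11 was at 0 throughout. Ahsg, with means of 7.77 and 0.0147, carried most of the male sum, while Alb averaged 0.584 and 0.0435. Macrophage markers summed to 7.51 to 10.1 and 13.2 to 15.8, and the defining marker Adgre1, listed under its older symbol Emr1, was at 0 throughout. The part of these cell type differences in the values of the respiratory chain genes was not tested.

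In complex I, 11 of 35 genes were higher, 7 lower and 17 not called, with a median log2 fold change of 0.02. The called share was 51.4%, beside 69.3% over all genes tested. The largest decrease was in Ndufv3, an accessory subunit of the NADH-binding module at the tip of the matrix arm. It was read at 135, 127 and 124 in the male and 54.1, 56.4 and 60.6 in the female libraries. Replicates were tight in both groups and the groups did not overlap. Its log2 change was -1.16 (SE 0.07, limma adjusted p 1.82e-06), which left the female mean at 44.3% of the male one.

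Ndufa6, a small accessory subunit of the matrix arm, was next, at 78.3, 90.8 and 90.7 in the male and 47.9, 47.6 and 54.4 in the female libraries. It fell by 0.78 on the log2 scale (SE 0.09, limma adjusted p 6.52e-05). The groups did not overlap, although male 4 lay below the other male libraries. Ndufs3, a core subunit of the quinone-binding module, was read at 58.8, 54.4 and 66.8 against 45.0, 42.4 and 41.2. It fell by 0.47 (SE 0.09, limma adjusted p 0.00134), again without overlap.

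The genes that rose most in complex I encode accessory subunits of the membrane arm. Ndufb6 was read at 24.5, 22.1 and 24.1 in the male and 36.6, 37.1 and 34.9 in the female libraries, and rose by 0.60 (SE 0.08, limma adjusted p 0.000149). Ndufa11 was read at 17.7, 20.9 and 20.4 against 28.6, 29.2 and 27.8, and rose by 0.52 (SE 0.09, limma adjusted p 0.000799). Ndufb7 was read at 16.5, 19.7 and 20.5 against 26.8, 26.1 and 27.2, and rose by 0.48 (SE 0.10, limma adjusted p 0.00203). For all 3 genes each female library was above each male one. Of Ndufb6's exon sequence, 39.0% overlaps Smim27 on the opposite strand in GENCODE M21. Whether the authors' counting used strand is not given in the sources used here.

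Of the 10 Ndufb genes, which encode membrane arm subunits, 5 were higher and 2 lower, a called share of 70.0% beside 69.3% over all genes tested. Ndufb8 (0.48), Ndufb4 (0.45) and Ndufb9 (0.30) were the others that rose, and Ndufb5 (-0.35) and Ndufb11 (-0.31) fell. Of the 12 Ndufa genes of complex I, 4 were higher and only Ndufa6 was lower, a called share of 41.7%, under that of all genes. Those higher include Ndufa12 (0.30), Ndufa5 (0.26) and Ndufa1 (0.22). The calls of Ndufa5 and Ndufa1 were lost in 4 of the 6 fits that left out 1 library. Of the remaining genes of complex I, Ndufs6 rose by 0.23, a call lost in 5 of those 6 fits, and Ndufc2 fell by 0.23, a call lost under CPM. The 17 genes not called had log2 fold changes from -0.21 to 0.31.

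The 7 core subunits carry the flavin and the iron-sulphur clusters that pass electrons from NADH to quinone. Of them 1 was higher, 2 were lower and 4 were not called, a called share of 42.9% beside 69.3% over all genes tested. Ndufs1, the largest of them, was read at 81.1, 75.9 and 78.0 in the male and 98.2, 101 and 97.9 in the female libraries. It rose by 0.34 on the log2 scale (SE 0.06, limma adjusted p 0.000877). Ndufv2, in the same NADH-binding module, was read at 84.4, 80.5 and 80.5 against 55.4, 62.2 and 59.1, and fell by 0.47 (SE 0.07, limma adjusted p 0.000293). Both genes had groups that did not overlap, in opposite directions. Ndufv1, which binds NADH, had a log2 change of -0.02 (SE 0.06) and was not called. Ndufs7 (-0.21) and Ndufs8 (-0.13) were not called either. Without male 4, when 74.8% of all genes were called, 2 core genes were higher and 4 lower, with Ndufs7 (-0.30) and Ndufs8 (-0.16) added among the lower. Of the 28 accessory genes, 10 were higher and 5 lower (53.6% called). The counts without male 4 were also 10 and 5, but Ndufs6 lost its call (limma adjusted p 0.061) and Ndufa9 gained one (0.24, limma adjusted p 0.0098).

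Ndufs5 had the widest replicate spread of the chain. It was read at 21.0, 12.2 and 25.9 in the male and 21.0, 34.4 and 18.2 in the female libraries, with a coefficient of variation of 35.1% and 35.2%. The groups overlapped, and the log2 change of 0.31 (SE 0.29, limma adjusted p 0.365) was not called. BC002163, a processed pseudogene in GENCODE M21, shares 21.7% of the 50-base words of Ndufs5 and was read at 6.14, 14.1 and 0.353 against 12.9, 0.398 and 19.1. Libraries high in one were low in the other. Their sum was 27.2, 26.3 and 26.3 in the male and 33.9, 34.8 and 37.3 in the female libraries, with a coefficient of variation of 1.90% and 4.98%. Summed before the fit, a step chosen after the values were seen, the pair had a log2 change of 0.40 (SE 0.07, limma adjusted p 0.00119). Counts of Ndufs5 alone are therefore uncertain, and so is their split between the gene and its copy.

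**Figure D4:**
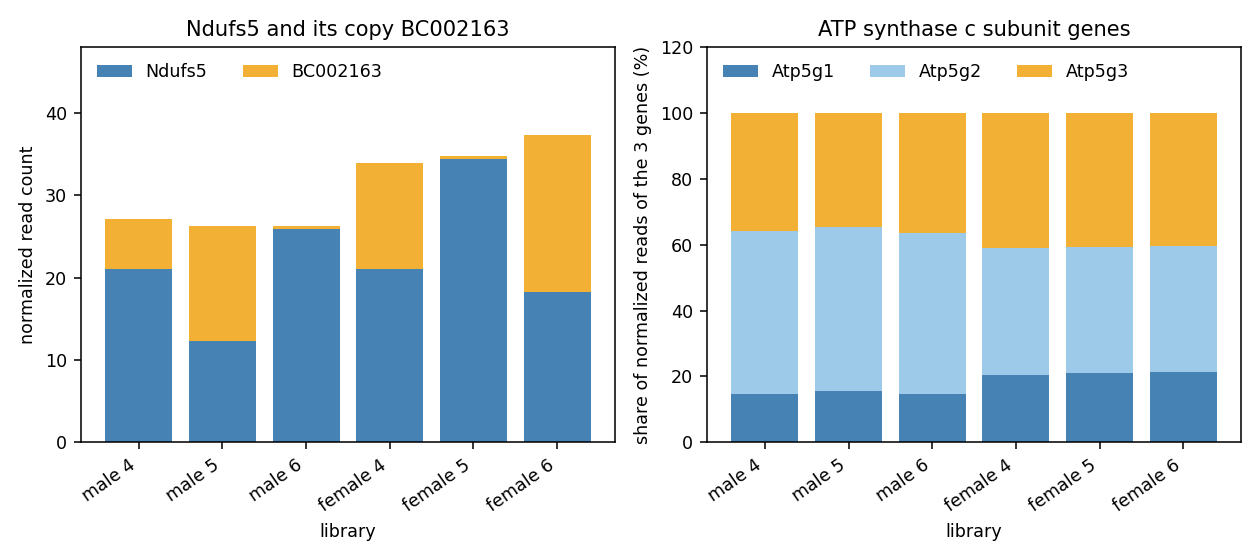
Left, normalized read count of Ndufs5 and BC002163 (y axis) stacked for each library (x axis); the stacks reach 26.3 to 27.2 in the male and 33.9 to 37.3 in the female libraries. Right, percent of the reads of Atp5g1, Atp5g2 and Atp5g3 that each gene took; the share of Atp5g2 was lower in every female library.

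Complex II, succinate dehydrogenase, also works in the citric acid cycle and was the complex with the fewest calls. Only Sdhd, a membrane anchor, was called (25% of the 4 genes, beside 69.3% of all genes tested). It was read at 61.5, 65.5 and 72.9 in the male and 51.8, 55.6 and 54.9 in the female libraries, and fell by 0.29 on the log2 scale (SE 0.08, limma adjusted p 0.00932). Sdhc, the other anchor, was read at 81.2, 77.6 and 85.1 against 73.9, 81.8 and 76.8, and the groups overlapped. Its log2 change was -0.07 (SE 0.07). The catalytic flavoprotein Sdha was read at 245, 211 and 212 against 218, 213 and 217, with a log2 change of -0.04 (SE 0.07) that was 0.03 without male 4. The iron-sulphur subunit Sdhb was read at 57.1, 56.8 and 56.7 against 58.6, 62.6 and 55.4, with a log2 change of 0.05 (SE 0.07). None of the 3 differed beyond the replicate spread.

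In complex III, 2 of 8 genes rose, 2 fell and 4 were not called, a called share of 50% beside 69.3% over all genes tested. The paired core proteins went opposite ways. Uqcrc1 was read at 105, 108 and 108 in the male and 151, 151 and 141 in the female libraries, and rose by 0.46 (SE 0.06, limma adjusted p 0.000133). Uqcrc2 was read at 122, 118 and 122 against 102, 102 and 101, and fell by 0.25 (SE 0.05, limma adjusted p 0.00307). Neither gene had overlapping groups, and 19.7% of the exon sequence of Uqcrc2 overlaps Pdzd9 on the opposite strand. The hinge protein gene Uqcrh was read at 95.7, 103 and 98.0 against 66.4, 77.1 and 73.1, and fell by 0.45 (SE 0.07, limma adjusted p 0.000605). Uqcrq, a small subunit, was read at 34.3, 35.2 and 36.8 against 44.9, 45.1 and 42.4, and rose by 0.31 (SE 0.07, limma adjusted p 0.00331). Uqcrfs1, the Rieske iron-sulphur protein, and Uqcrb, Uqcr10 and Uqcr11 were not called, with log2 fold changes from -0.08 to 0.22.

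In complex IV, 5 of 13 genes rose, 4 fell and 4 were not called, so that 69.2% were called, about the share over all genes tested (69.3%). Beside Cox4i1 and Cox6b1, the genes that rose were Cox6a1, Cox5a and Cox6c (0.19). Cox6a1, the non-muscle form of its subunit, was read at 72.4, 71.0 and 73.0 in the male and 116, 113 and 101 in the female libraries. Its log2 change of 0.60 (SE 0.07, limma adjusted p 8.09e-05) was on a par with that of Ndufb6, also 0.60. Cox5a was read at 53.8, 49.5 and 56.4 against 73.2, 72.1 and 67.5, and rose by 0.41 (SE 0.07, limma adjusted p 0.00103). Groups did not overlap for either gene.

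Beside Cox4i2 and Cox6b2, Cox7a2l and Cox7c fell. Cox7a2l was read at 170, 185 and 184 in the male and 149, 149 and 156 in the female libraries. It fell by 0.25 (SE 0.06, limma adjusted p 0.00546), a call lost under quantile normalization. Cox7a2, which encodes the related subunit of complex IV, was read at 41.8, 46.4 and 46.7 against 49.4, 52.6 and 49.1. Its log2 change of 0.16 (SE 0.07, limma adjusted p 0.0737) was not called, although the groups did not overlap. Cox7c fell by 0.22, a call lost under CPM, and shares 22.1% of its 50-base words with other genes. Cox8a, Cox7b and Cox5b were not called either, and the 4 uncalled genes lay between -0.07 and 0.16.

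In complex V, 4 of 15 genes rose, 3 fell and 8 were not called, a called share of 46.7% beside 69.3% over all genes tested. Atp5b, the catalytic beta subunit, rose most. It was read at 764, 660 and 696 in the male and 1029, 1032 and 972 in the female libraries, without overlap. The log2 change was 0.52 (SE 0.07, limma adjusted p 0.000278), or 0.58 without male 4. Atp5a1, the alpha subunit that alternates with beta in the same ring, was read at 492, 434 and 437 against 476, 486 and 490. The groups overlapped through male 4, and the log2 change of 0.09 (SE 0.07, limma adjusted p 0.241) was not called. Without male 4 it was 0.15 and was called (limma adjusted p 0.0065).

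Of the 3 genes of the central stalk, 2 fell, beside 34.6% of all genes tested that were called lower. Atp5c1, the gamma subunit, was read at 190, 184 and 188 in the male and 150, 157 and 156 in the female libraries, and fell by 0.28 (SE 0.05, limma adjusted p 0.00167). Atp5e, the epsilon subunit, was read at 28.3, 36.4 and 39.8 against 27.0, 26.6 and 27.0, and fell by 0.35 (SE 0.12, limma adjusted p 0.0279). That call was lost in 5 of the 6 fits that left out 1 library and held without male 4. It was kept in only 2 of the 4 other scalings. The third, Atp5d, was not called. Atp5o, which ties the catalytic head to the peripheral stalk, was read at 93.5, 102 and 99.3 against 111, 117 and 117, and rose by 0.23 (SE 0.06, limma adjusted p 0.0091). The peripheral stalk gene Atp5f1 rose by 0.21, a call lost in 4 of the 6 fits that left out 1 library. The 8 genes not called had log2 fold changes from -0.10 to 0.17.

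The ring of c subunits, which turns as protons pass, is encoded by Atp5g1, Atp5g2 and Atp5g3, whose mature proteins are identical. Atp5g1 was read at 29.0, 34.5 and 33.5 in the male and 45.1, 44.7 and 44.4 in the female libraries, and rose by 0.46 (SE 0.08, limma adjusted p 0.00105). Atp5g2 was read at 99.8, 111 and 111 against 84.7, 80.9 and 79.9, and fell by 0.39 (SE 0.07, limma adjusted p 0.000893). Atp5g3 was read at 71.6, 76.9 and 83.1 against 90.3, 86.6 and 84.1, and its log2 change of 0.17 (SE 0.07, limma adjusted p 0.059) was not called. The sum over the 3 genes was 217 ± 14.4 in the male and 214 ± 5.99 in the female libraries (SD, n = 3), a difference smaller than either SD. What differed was the makeup of the sum, given here as shares of reads with no correction for transcript length. Atp5g1 took 14.9% ± 0.525 and 21.0% ± 0.430 of it, Atp5g2 49.5% ± 0.692 and 38.3% ± 0.175, and Atp5g3 35.6% ± 1.03 and 40.7% ± 0.348. Atp5g2 shares 38.3% of its 50-base words with other genes, among them Gm10175 and Gm10231, so its counts are uncertain.

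Atp5s and Atp5sl moved in opposite directions. Atp5s was read at 3.57, 4.27 and 4.70 in the male and 5.44, 7.29 and 5.22 in the female libraries. It rose by 0.43 (SE 0.15, limma adjusted p 0.0294) and lost its call in 3 of the 6 fits that left out 1 library, those without male 4 (limma adjusted p 0.055), male 5 or female 5. Atp5sl, known as an assembly factor of complex I, was read at 10.7, 10.1 and 10.7 against 7.76, 7.51 and 7.84. It fell by 0.40 (SE 0.09, limma adjusted p 0.00366).

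Summed over a complex, levels differed less than many of the single genes did. Complex V stood highest in the female libraries relative to the male ones, with sums of 2354, 2259 and 2310 against 2646, 2666 and 2592, or 114% of the male mean. The groups did not overlap, and Atp5b made up most of the difference, as its mean rose from 707 to 1011. Complex I summed to 1553, 1564 and 1598 against 1507, 1533 and 1483, or 96.0% of the male mean, also without overlap. Its direction reversed under CPM, where the log2 ratio was 0.02, as did that of complex II (0.0042). The sums of complexes II, III and IV overlapped between the groups, at 95.1%, 101% and 103% of the male mean. Without Cox4i2, complex IV was at 107% and its groups did not overlap. No p is given for the sums.

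**Figure D5:**
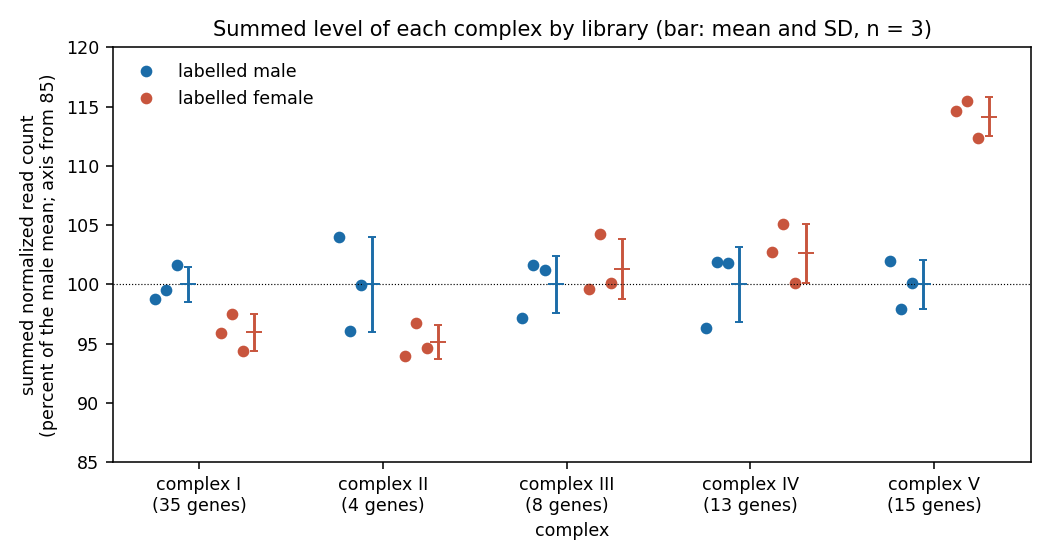
Summed normalized read count of each complex (x axis) in each library, as percent of the male mean (y axis, starting at 85), with the mean and SD beside the points (n = 3). The female libraries lie apart from the male ones for complex V, at 114% on average, and for complex I, at 96.0%.

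Electron transfer from complex III to IV runs through cytochrome c, which lies outside the symbol rule. Its gene Cycs was read at 75.6, 81.4 and 77.8 in the male and 151, 158 and 151 in the female libraries. It rose by 0.96 on the log2 scale (SE 0.06, limma adjusted p 2.12e-06), more than any of the 79 genes. Cyc1, the haem-carrying cytochrome of complex III, and Ndufab1 of complex I were not called.

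Assembly factors, which build the complexes without being part of them, moved in both directions. For complex I, 6 of 18 rose and 3 fell, a called share of 50% beside 69.3% over all genes tested. They include Timmdc1 (0.65), Tmem126a (0.65) and Ecsit (-0.87). For complex II, 2 of 4 rose, and for complex III, 3 of 6 fell (50% each), with Bcs1l, which inserts the Rieske protein, lower by a log2 fold change of -0.77. For complex IV, 9 of 25 rose and 6 fell (60.0%). Lrpprc, which stabilises mitochondrial messenger RNA, rose by 0.75, and Surf1, needed for haem insertion, fell by 0.48. The 3 factors for complex V were not called by limma and had log2 fold changes from -0.22 to 0.05. The called shares of these 5 lists were all below that over all genes.

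Among 16 regulators of mitochondrial biogenesis tested, 7 rose and 4 fell, a called share of 68.8% beside 69.3% over all genes tested. Myc was read at 81.5, 35.5 and 30.6 in the male and 165, 152 and 172 in the female libraries, and rose by 1.84 (SE 0.31, limma adjusted p 0.000771). Male 4 stood above the other male libraries and below all female ones. The coactivator Pprc1 (1.10), the mitochondrial transcription factors Tfb2m (0.77) and Tfam (0.26), the nuclear receptor Esrra (0.63) and the GABP subunits Gabpa (0.34) and Gabpb1 (0.27) also rose. The nuclear receptors Esrrg (-1.99) and Ppard (-0.73) fell, as did Mterfd2 (-1.23) and Tfb1m (-0.50). Nrf1, Yy1 and Polrmt were not called. The coactivator Ppargc1a averaged 0.803 and 0.724 and did not pass the filter on low values.

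Genes known to switch respiration in hypoxia were mostly lower in the female libraries. Of 15 tested, 12 fell and 1 rose, where 34.6% of all genes were called in each direction. The 12 include Ndufa4l2 and Cox4i2. Hif1a was read at 1141, 1826 and 1729 in the male and 298, 341 and 379 in the female libraries, and fell by 2.18 on the log2 scale (SE 0.17, limma adjusted p 1.03e-05). Epas1, which encodes the related factor hypoxia-inducible factor 2 alpha, was read at 529, 479 and 480 against 114, 117 and 133, and fell by 2.02 (SE 0.08, limma adjusted p 1.9e-07). Groups were far apart for both genes, and male 4 was the lowest male library for Hif1a and the highest for Epas1. The glucose transporter Slc2a1 (-2.37), the mitophagy receptors Bnip3 (-1.26) and Bnip3l (-0.77), and Pdk1 (-1.07), which keeps pyruvate out of the citric acid cycle, also fell. So did Higd1a (-1.20), a factor of complex IV, and Ldha (-0.55), Iscu (-0.45) and Pdk3 (-0.43). Chchd4, which imports proteins into the intermembrane space, rose by 1.36 from a low level of 2.54 to 7.92. Neither Chchd2 nor Lonp1, the protease known to degrade the Cox4i1 protein in hypoxia, was called.

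Of the 79 genes, 6 had a false discovery rate under 0.05 in the authors' deposited table, a mark that 25.8% of its genes passed. The authors' deposited table gave signed folds of -74.0 for Ndufa4l2, -12.6 for Cox4i2, -2.26 for Ndufv3 and -1.73 for Ndufa6, and 1.52 for Cox6a1 and 1.54 for Ndufb6. Cox6b2, with a fold of -2.32 there, had a false discovery rate of 0.0567 in the authors' deposited table.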

How the data were processed

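Poly(A) RNA was sequenced in 6 libraries. The authors' steps are known only in part. The submitters' processing notes name Bowtie2, RSEM, edgeR and the build mm39, with no role or order. The deposited signal is a normalized read count for each of 13595 genes and 6 libraries. Dividing a column by its smallest positive value gave whole reads for 100% of values (tolerance 1e-04 reads). At this depth 1 read is worth 0.0353 to 0.0475. The deposited score is the authors' signed linear fold, and the deposited p-value columns give their unadjusted p and their false discovery rate, as the file headers name them.

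Because these are not raw counts, the sexes were compared on log2(value + 1) by limma (version 3.58.1, R version 4.3.3), with eBayes and its intensity trend. A gene entered if 3 or more libraries reached a value of 1, which left 12568 genes. P-values were two-sided and adjusted by the Benjamini-Hochberg method. Fold changes on this scale understate the change of low genes. A gene is called at an adjusted p under 0.05. On simulated reads of 12448 tested genes with 200 changed by a log2 size of 1, 194 were recovered, and 9.77% of the 215 calls were false. The simulation kept the differing summed values of the libraries, and 8704 genes were called in the data. Its false share therefore does not measure that of the real calls.

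Genes were named by a rule. It took the alternative subunit pairs, all of complex II, the core of complex I, up to 3 called genes per direction in each other complex, and called regulators and hypoxic switch genes. Other genes are given by count and range, or chosen after their values were seen. Some single-gene results are not reported here. The members and lists were chosen with earlier results of these data known. Alternatives were a pseudocount of 0.1, no filter, a filter of 10 reads in every library, RLE, CPM, upper-quartile and quantile scaling, edgeR 4.0.16, DESeq2 1.42.0 and voom on the recovered reads, the replicate number as a block, each library left out, and a log2 fold threshold of 1. A sum of Ndufs5 and BC002163 was added after the data were seen. Sequence sharing (50-base words) and overlaps came by symbol from GENCODE M21. Promoters came from RefSeq. Ratios of reads between the genes of a pair are also given per base of the longest coding transcript, while shares and sums of reads over several genes are not corrected for length. Positions on mm39 are not given.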

Additional observations from a re-analysis of the deposited data

How the results depend on the processing

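Of the 43 called genes, 33 kept their call and direction in all 18 alternatives to the fit, 39 in the 4 other scalings and 36 when each of the 6 libraries was left out. The count was 36 to 49 throughout, and 43 with edgeR and 42 with DESeq2. Only 4 were called with the log2 fold threshold of 1, 0 higher and 4 lower. Calls lost were those of Atp5e, Ndufc2, Cox7c, Cox7a2l, Atp5f1, Atp5s, Cox6b1, Ndufa1, Ndufa5 and Ndufs6.

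Libraries with the same replicate number showed no shared deviation, with correlations of -0.09, -0.03 and -0.17. Whether they were prepared together is not given in the labels and cannot be decided from these correlations. The fit with that number as a replicate block called 40 genes, 21 higher and 19 lower, and calls of Ndufa1, Ndufa5 and Ndufs6 were lost.

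Under CPM the log2 sums became 0.016 for complex I, 0.0042 for II, 0.094 for III, 0.11 for IV, 0.27 for V, 0.17 for IV without Cox4i2, 0.094 for all 79 genes and 0.14 without Ndufa4l2. Those of I and II were negative in the deposited scaling. This scaling moved the median of all genes from 0.01 to 0.08.

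Signs reversed for uncalled genes alone, and the cause was not tested. Under CPM, upper-quartile and quantile scaling, the log2 fold changes were 0.0251, 0.00739 and 0.00682 for Ndufa10, 0.034, 0.017 and 0.019 for Ndufs4, and 0.057, 0.039 and 0.043 for Ndufv1. They were 0.036, 0.018 and 0.074 for Sdha, 0.062, 0.045 and 0.048 for Uqcrb, 0.048, 0.031 and 0.020 for Atp5d, and 0.056, 0.038 and 0.031 for Atp5h. Under CPM alone, Sdhc was at 0.00558, Cox7b at 0.0147 and Cox8a at 0.00166. When each library was left out in turn, the log2 fold change ranged from -0.0543 to 0.167 for Ndufc1, -0.0533 to 0.00307 for Ndufv1, -0.0773 to 0.0305 for Sdha, and -0.0597 to 0.0724 for Uqcrb. It ranged from -0.132 to 0.000973 for Cox8a, -0.105 to 0.0328 for Atp5d, -0.0479 to 0.0205 for Atp5h, -0.0251 to 0.115 for Atp5j2, and -0.0320 to 0.0752 for Atp5l.

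Every library held at least 58 reads of each of the 79 genes. Counting error was not separated from the replicate spread, and 3 libraries a group limit the precision.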
